A study of Mus musculus with 5 samples.

Results

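The calpain system of the lens was examined on Illumina MouseWG-6 v2.0 BeadChips, on which labelled transcripts are read by beads that carry gene-specific probes. The genes taken were *Capn1*, *Capn2*, *Capn3*, *Capn5*, *Capn6*, *Capn7*, *Capn10*, the small subunit gene *Capns1* and the calpastatin gene *Cast*, each with every probe that the platform annotation names for it. This gave 20 probes of 9 genes, out of 34885 probes that name 1 gene and 45281 probes in all. The genes, and the comparison of the *Capn3* probes with each other, were chosen on the mutant and control values of these same arrays, which were known from an earlier look at the data. The values of these 20 probes are therefore given as a description, without p-values.

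RNA came from whole lenses of newborn mice (postnatal day 0), 2 lenses to an array. The 3 mutant arrays, A, B and C, hold *Celf1*cKO/lacZKI lenses. Such mice carry the *Pax6GFPCre* transgene, a floxed *Celf1* allele and a germline *lacZ* knock-in allele. A *Pax6* promoter fragment drives this Cre from the lens placode onward, so exon loss on the floxed allele is limited to cells in which Cre acts, while the *lacZ* allele is carried by every cell. The 2 control arrays, A and B, are labelled as wild-type mice on a mix of C57BL/6J and FVB. The controls of the study as a whole were floxed mice without Cre or Cre mice with intact *Celf1*, and which of these genotypes the control arrays hold is not given in the sources used here.

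Calpains are cysteine proteases that are switched on by calcium and cut their substrates at a few sites rather than degrading them. The conventional calpains, calpain 1 and calpain 2, work as a catalytic subunit bound to the small subunit encoded by *Capns1*, and calpastatin is their dedicated inhibitor. Calpain 3 is best known as p94, the calpain of skeletal muscle, and the rodent lens makes its own calpain 3 transcripts, among them Lp82. In the rodent lens, calpain activity is known for cleaving crystallins and cytoskeletal proteins, both as fiber cells mature and in cataract.

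*Capn3* is shown by sequence because transcripts of 1 gene can begin at separate starts, so that probes of the gene need not read the same RNA. The RefSeq gene table lists p94 and Lp82 among the synonyms of *Capn3* and gives it 3 curated transcripts, and the RefSeq promoter table (GRCm38.p6) holds 2 start windows for it, 13316 bases apart on the plus strand of chromosome 2. The 250 bases before each start are printed below. Capitals mark a match to the MEF2 consensus in the upstream window. In the downstream window they mark TGCTGAC, a half-site of the Maf recognition element, and TATATA.
upstream start, chr2:120463343-120463592: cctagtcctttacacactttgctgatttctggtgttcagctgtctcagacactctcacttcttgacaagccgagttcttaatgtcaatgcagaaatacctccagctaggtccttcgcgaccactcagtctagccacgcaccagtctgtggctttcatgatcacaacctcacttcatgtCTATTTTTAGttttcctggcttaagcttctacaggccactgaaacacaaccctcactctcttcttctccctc
downstream start, chr2:120476659-120476908: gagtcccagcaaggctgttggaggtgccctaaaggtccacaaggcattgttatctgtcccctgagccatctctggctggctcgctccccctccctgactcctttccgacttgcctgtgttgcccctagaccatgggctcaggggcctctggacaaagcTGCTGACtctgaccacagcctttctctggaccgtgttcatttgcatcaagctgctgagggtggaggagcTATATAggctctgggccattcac

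The motifs were chosen after these sequences were seen, and both strands were searched. The MEF2 match began 72 bases before the upstream start, and 2.92% of 32851 windows of this length held one. TGCTGAC began 92 bases before the downstream start and was in 3.81% of windows, and TATATA began 23 bases before it, with TATAAA or TATATA in 15.6% of windows. The E-box, CANNTG, had 1 match in each *Capn3* window, which did not overlap the others, and occurred in 66.2% of windows. None of the first 3 motifs was found in the other *Capn3* window. These matches are letters in a window and not measured sites. The 3 *Capn3* probes share 1 transcript record (NM_007601), and the sources used here do not place them along the gene, so no probe can be tied to either start.

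Of 4 *Celf1* probes, which check the labels, 3 were lower on every mutant array, and the brightest read 154 to 173 on the mutant arrays and 461 to 516 on the control arrays. The fourth, ILMN_2726496, which carries another transcript record, went the other way, with 283, 324 and 227 in mutant lenses A, B and C against 201 and 178 in the controls (log2 fold change 0.47). The arrays differed in sex-linked RNA. *Xist*, which is made from the inactive X chromosome, was at 432 and 441 in the controls and at 264 in mutant C, but -0.3 and -0.9 on mutant arrays A and B, whose Y-linked *Eif2s3y* read 207 and 177 against 1.1 to 4.4 on the other arrays. Sex and genotype cannot be told apart for mutant arrays A and B, so values for mutant array C alone are set beside the *Capn3*, *Capn5* and *Capns1* results. The median probe intensity lay between 5.6 and 7.2 on the 5 arrays. A probe is called dim here where its mean over the arrays was under 20, and levels of different probes are not compared, since probes bind with different strength.

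*Capn3* gave the widest contrast of the set, with probes that moved in opposite directions. The brightest probe, ILMN_2771518, read 1460, 1348 and 698 in mutant lenses A, B and C against 2459 and 2755 in control lenses A and B. All mutant arrays lay below both controls, and mutant array C lay furthest below. The means were 1169 ± 411 (SD, n = 3) and 2607 ± 209 (SD, n = 2), a log2 fold change of -1.20 (standard error 0.28) after the constant 36.5 was added to every intensity. On this probe the mutant arrays held 56.0%, 51.7% and 26.8% of the control mean.

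The second probe, ILMN_2867771, read 1135, 1085 and 795 in mutant lenses A, B and C against 1980 and 2234 in the controls. The groups were again apart, with mutant array C lowest. The means were 1005 ± 184 (SD, n = 3) and 2107 ± 180 (SD, n = 2), and the log2 fold change was -1.06 (standard error 0.15).

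The third probe, ILMN_2695626, went the other way. It read 120, 87.7 and 90.8 in mutant lenses A, B and C against 31.6 and 15.5 in the controls, so that every mutant array lay above both controls. The means were 99.6 ± 17.9 (SD, n = 3) and 23.6 ± 11.4 (SD, n = 2), and the log2 fold change was 1.19 (standard error 0.14). The control values of this probe are close to background, so its fold change depends on the added constant and was 1.57 on the log2 scale with values below 0 raised to 0 and a constant of 16.

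**Figure D1:**
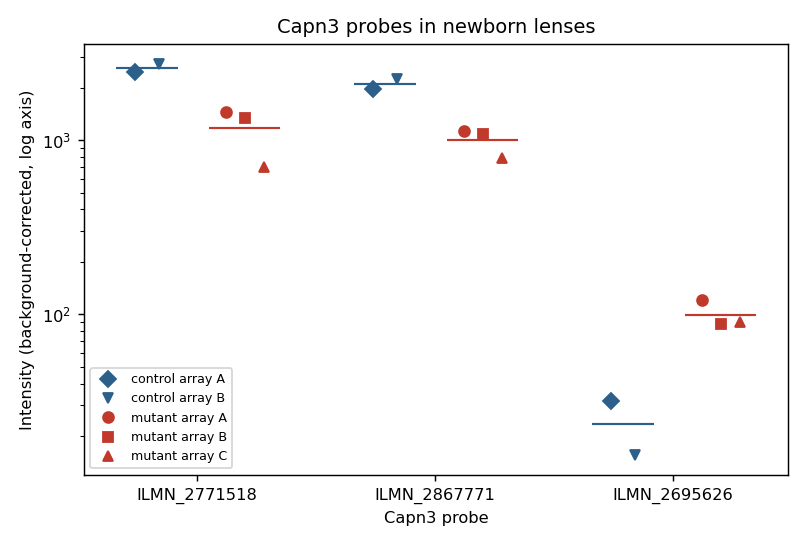
Background-corrected intensity (log axis) of the 3 *Capn3* probes on each of the 3 mutant and 2 control arrays, with horizontal lines at the group means. The mutant arrays lie below both controls on ILMN_2771518 and ILMN_2867771 and above both on ILMN_2695626, where the controls read 31.6 and 15.5.

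Set against each other within an array, the 2 bright *Capn3* probes moved alike on mutant arrays A and B, where their deviations from the control mean differed by 0.05 and 0.00 on the log2 scale. On mutant array C this difference, brightest minus second probe, was -0.48. Between the brightest probe and the third, the deviations differed by -2.22, -1.99 and -2.94 in mutant lenses A, B and C, while the controls lay at -0.28 and 0.28. The mean difference was -2.38 ± 0.50 (SD, n = 3). With mutant array C as the only mutant, the 3 probes had log2 fold changes of -1.85, -1.36 and 1.10. The opposite directions were thus also present on this array, whose *Xist* was at 264 against 432 and 441 in the controls. It has no replicate, and the part of sex in these values was not tested.

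Lens fiber cell markers were read on the same arrays. Summed over 11 measured markers, their intensity was 195872 to 228824 on the mutant arrays and 234349 to 244462 on the controls, with no overlap. In limma's fit over all genes, 3 of the 11, *Lim2*, *Bfsp2* and *Hsf4*, passed as lower and 0 as higher at an adjusted p under 0.05. At an unadjusted p under 0.05 the counts were also 3 and 0. Of all genes, 2.66% passed as lower and 3.15% as higher at the adjusted threshold. None of the 11 was dim, and with dim probes left out of the fit 1083 of 7955 genes passed in either direction. Of single probes, 15.4% had all mutant arrays below both controls. The other 8 did not pass. Among the mutant arrays the sum was highest on array C, where both bright *Capn3* probes were lowest. Single markers differed in this. *Bfsp2*, *Hsf4* and *Cryga* were lowest on array C among the mutant arrays, and each of the other measured fiber markers was highest there. The log2 fold changes of the 11 markers lay between -0.51 and -0.05, and those of the bright *Capn3* probes lay below this range. The sum of 6 lens epithelium markers was 932 to 1752 on the mutant arrays and 1783 to 2400 on the controls, and most of it came from *Gja1*, whose groups overlapped (1410, 877 and 695 against 1282 and 1942). Of the 6, *Sulf1* passed as lower (-0.80, adjusted p = 0.0286 from limma), 5 did not pass, and *Foxe3* and *Npnt* had log2 fold changes of 0.04 and 0.22. The part of these shifts in the *Capn3* values was not tested. In whole lenses, fewer cells of a type and less RNA per cell cannot be told apart.

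Skeletal muscle, the main site of p94, was at most faintly present. The 10 measured muscle markers summed to 97 to 115 on the mutant arrays and 107 to 112 on the controls, 8 of the 10 were dim, and the muscle actin gene *Acta1* and the creatine kinase gene *Ckm* read between -2.2 and 3.9 on every array. The 6 retinal markers were dim, at a sum of 37.1 to 57.1 on the mutant arrays and 33.1 to 38.2 on the controls. The 6 markers of cornea and surface epithelium were dim as well, at 22.6 to 27.5 and 23.0 to 33.9.

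The subunit that the conventional calpains share was higher in the mutant. *Capns1* read 1036, 1056 and 1299 in mutant lenses A, B and C against 703 and 522 in the controls, with every mutant array above both controls. The means were 1130 ± 146 (SD, n = 3) and 612 ± 128 (SD, n = 2), and the log2 fold change was 0.85 (standard error 0.14). On mutant array C alone it was 1.06.

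The catalytic subunits of the conventional calpains overlapped between the groups on their brightest probes. *Capn2*, the catalytic subunit of m-calpain, has 5 probes, and on its brightest, ILMN_2620030, the values were 219, 279 and 219 in the mutant against 256 and 219 in the controls. The groups overlapped on 4 of the 5 probes, and the means on the brightest were 239 ± 34.7 (SD, n = 3) and 238 ± 26.1 (SD, n = 2). The log2 fold changes of the 5 probes ran from -0.05 (standard error 0.09) to 0.23 (standard error 0.09), the highest on the dim ILMN_2584397, where all mutant arrays lay above both controls. *Capn1*, the catalytic subunit of μ-calpain, read 40.9, 26.4 and 28.5 in the mutant against 32.1 and 38.7 in the controls on the brighter of its 2 probes, and its log2 fold change was -0.08 (standard error 0.11). Its other probe read between 0.3 and 4.6 on every array and was dim.

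The inhibitor was near background throughout. The 3 *Cast* probes were all dim, with means over the arrays of 7.88, 2.26 and 1.46. The brightest read 14.1, 9.5 and 13.4 in mutant lenses A, B and C against 5.1 and -2.7 in the controls, a log2 fold change of 0.38 (standard error 0.11), and the other probes had -0.12 and 0.16. The RefSeq table gives *Cast* 8 curated transcripts, and all 3 probes carry the same record, so transcripts that these probes do not read would be missed.

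*Capn5* was lower in the mutant. Calpain 5 lacks the calcium-binding domain of the conventional calpains, and in human its variants cause an inflammatory disease of the retina. *Capn5* read 234, 254 and 256 in mutant lenses A, B and C against 434 and 391 in the controls, with no overlap. The means were 248 ± 12.1 (SD, n = 3) and 413 ± 30.1 (SD, n = 2), and the log2 fold change was -0.66 (standard error 0.08) and -0.62 on mutant array C alone. The mutant arrays differed from each other less on this probe than on either bright *Capn3* probe, and held 56.7% to 62.0% of the control mean.

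The remaining non-classical calpains had smaller differences. *Capn7*, whose protein binds the ESCRT machinery of membrane remodelling, read 297, 304 and 284 in the mutant against 298 and 302 in the controls, a log2 fold change of -0.02 (standard error 0.07). *Capn10*, linked to type 2 diabetes in human, has 3 probes with log2 fold changes of -0.09, -0.33 and 0.07. The middle one, ILMN_1251808, read 33.4, 32.6 and 16.1 in mutant lenses A, B and C against 43.2 and 42.6 in the controls, and thus had its lowest value on mutant array C. *Capn6*, an X-linked gene whose protein lacks the active-site cysteine, was dim at 3.1 to 6.8 on the 5 arrays.

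**Figure D2:**
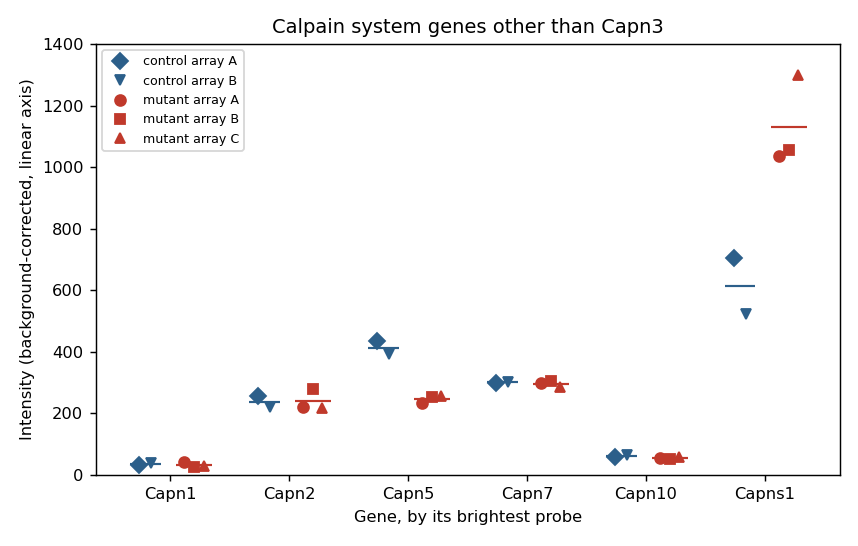
Background-corrected intensity (linear axis) of the brightest probes of *Capn1*, *Capn2*, *Capn5*, *Capn7*, *Capn10* and *Capns1* on each mutant and control array, with lines at the group means. The groups are apart for *Capns1* (1036 to 1299 against 522 to 703), *Capn5* (234 to 256 against 391 to 434) and, narrowly, *Capn10* (52.7 to 56.5 against 56.8 to 63.8), and overlap for *Capn1*, *Capn2* and *Capn7*.

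Over the 20 probes, 14 had a mean intensity of at least 20 and 6 were dim. In 4 of them all mutant arrays lay above both controls and in 6 all lay below, where 15.5% and 15.4% of the 34885 probes did so. In limma's fit over all these probes, 2 of the 20 passed an adjusted p under 0.05 in the higher direction, *Capns1* and ILMN_2695626 of *Capn3*, and 2 in the lower, *Capn5* and ILMN_2867771 of *Capn3*. The shares among all probes were 2.40% and 1.89%. With dim probes left out of the fit, 5 of this set passed, where 1469 of 11512 probes did. Since the set was chosen with this contrast known, nothing is read from these counts. The median log2 fold change was 0.00 over the 20 probes and 0.00 over all probes. In the fit over all 34885 probes the brightest *Capn3* probe, whose mutant arrays were the most spread, did not pass. Without control array B, *Capn5* alone passed, and without mutant array B, *Capns1* did not.

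**Figure D3:**
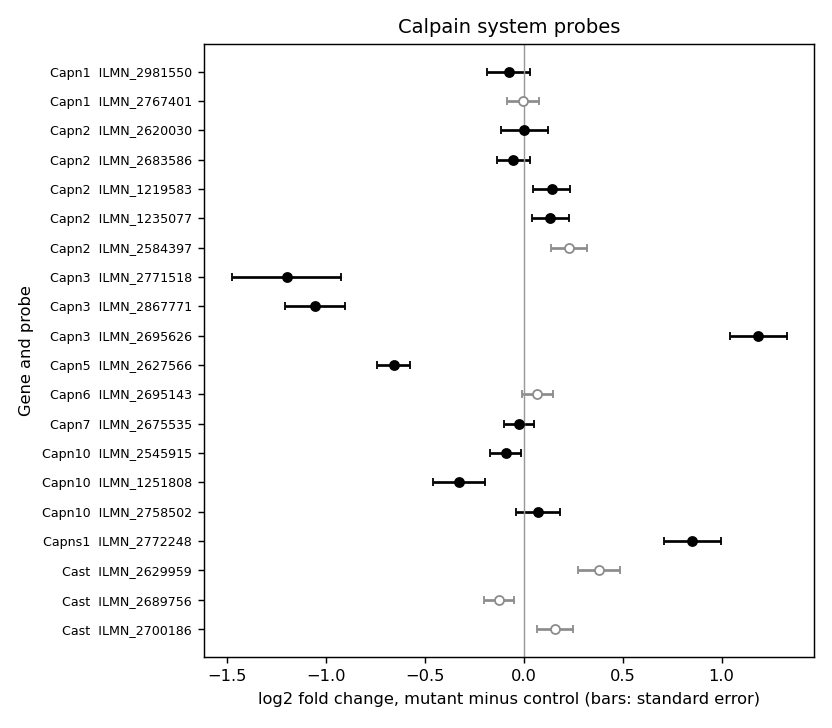
Log2 fold change, mutant minus control, with its standard error for each of the 20 probes of the calpain system (3 against 2 arrays). Filled points have a mean intensity of at least 20 and open points are dim. The 3 *Capn3* probes lie at -1.20, -1.06 and 1.19, *Capn5* at -0.66 and *Capns1* at 0.85.

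To place the brightest *Capn3* probe among other genes, 4567 genes with a mean intensity of at least 100 were ranked by the root mean square difference of their log2 values, centred over the 5 arrays, from those of *Capn3*. The closest were *Tmcc1*, a protein of the endoplasmic reticulum (0.05), *Tjp1*, the tight junction scaffold ZO-1 (0.07), *Krcc1* (0.12), *Birc7*, an inhibitor of apoptosis (0.12), and *Idh2*, a mitochondrial isocitrate dehydrogenase (0.13). *Tmcc1* read 94.5, 92.0 and 34.4 in mutant lenses A, B and C against 201 and 213 in the controls, and *Birc7* read 1607, 1645 and 680 against 2706 and 2688. Each has the stepped pattern of *Capn3*, with the controls highest and mutant array C lowest. They were picked for this likeness over 5 arrays, so it carries no test.

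**Figure D4:**
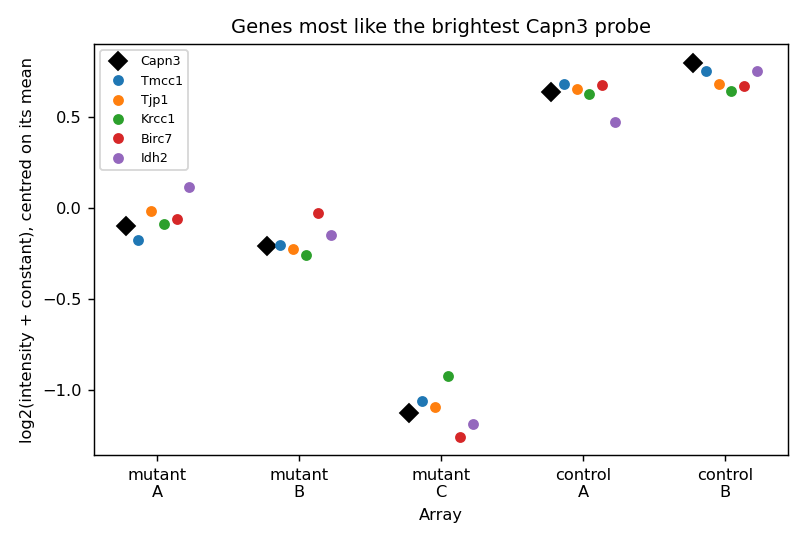
Log2 of intensity plus the constant, centred on each gene's mean, on the 5 arrays for the brightest *Capn3* probe (black diamonds) and the 5 genes closest to it (circles). In all 6 the control arrays are highest and mutant array C is lowest.

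Of 6 other calpain genes that were measured, 5 were dim. Of the 6, 0 rose and 0 fell in limma's fit over 19057 genes, each read by its brightest probe, where 3.15% of all genes rose and 2.66% fell, and 0 had an unadjusted p under 0.05. *Capn8* and *Capn9*, calpains of the gut, *Capn11*, *Capn13* and the second small subunit gene *Capns2* were dim, with values between -2.8 and 9.5. *Capn15*, whose loss disturbs eye development in mouse, read 49.3, 50.3 and 64.0 in the mutant against 48.8 and 45.7 in the controls, with all mutant arrays above both controls (log2 fold change 0.12, adjusted p = 0.620 from limma).

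Of 12 measured lens proteins known as calpain substrates, 1 rose, 1 fell and 10 did not pass, where 3.15% of all genes rose and 2.66% fell. The median log2 fold change was -0.14 against 0.00 over all genes. The beaded filament gene *Bfsp2* fell by 0.50 on the log2 scale (adjusted p = 0.0457 from limma), from 6574 to 4650, and passed in 2 of its 16 alternatives (0.0440 to 0.316). *Sptbn1*, a β-spectrin, rose on its brightest probe (log2 fold change 2.12, adjusted p = 6.57e-04), but fell on ILMN_1214394 (log2 fold change -1.03) and on ILMN_1244992 (log2 fold change -0.61), so it too had probes moving in opposite directions. With all its probes averaged it did not pass (0.07, adjusted p = 0.680, range over 16 alternatives 2.53e-05 to 0.680). The crystallin genes *Cryab* and *Crybb2* lay at -0.29 and -0.46 on the log2 scale (adjusted p = 0.0920 and 0.122).

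Of 15 measured substrates known from other tissues, 2 rose, 0 fell and 13 did not pass, with a median of 0.03. The shares of all genes were 3.15% rising and 2.66% falling. *Atg5*, an autophagy protein that calpains can cut, read 343, 341 and 274 in mutant lenses A, B and C against 144 and 136 in the controls. All mutant arrays were above both controls, the difference was 1.01 on the log2 scale (standard error 0.11, adjusted p = 0.00422 from limma), and a second probe had 0.87. Without control array B it did not pass. *Nfkbia*, the inhibitor of NF-κB, had 0.51 (adjusted p = 0.0498) and passed in 3 of its 16 alternatives (0.0452 to 0.332). The other *Nfkbia* probe was dim and had -0.11. *Ctnnb1*, which encodes β-catenin, had -0.67 (adjusted p = 0.247), and *Pxn*, *Bid* and *Src* had -0.29, -0.25 and 0.33 (adjusted p = 0.164, 0.202 and 0.127).

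Calcium is the switch of the conventional calpains. Of 21 measured genes of calcium entry, stores and extrusion, 2 rose, 3 fell and 16 did not pass, with a median of -0.03. The shares of all genes were 3.15% rising and 2.66% falling. *Orai1*, the pore of store-operated calcium entry, read 345, 379 and 472 in mutant lenses A, B and C against 155 and 161 in the controls, and rose by 1.15 on the log2 scale (standard error 0.13, adjusted p = 0.00423 from limma). *Stim1*, the store sensor that opens it, read 28.9, 25.6 and 22.5 in the mutant against 73.8 and 52.0 in the controls, and fell by 0.67 on the log2 scale (standard error 0.11, adjusted p = 0.0158). On these probes the pore gene and the sensor gene thus moved in opposite directions. The other *Stim1* probes were dim, with log2 fold changes of -0.27 and -0.07, and did not pass. *Orai1* did not pass without control array B, and *Stim1* did not pass without mutant array B or control array A or with all its probes averaged.

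*Atp2a2*, the pump that refills the stores, rose by 0.76 on the log2 scale (standard error 0.09, adjusted p = 0.00508 from limma), from 471 and 402 on the controls to 768, 754 and 773 on the mutant arrays. Its 3 other probes had log2 fold changes of 0.45, 0.43 and -0.02 and did not pass. The IP3 receptor gene *Itpr2* fell by 2.12 on the log2 scale on its brightest probe (adjusted p = 7.96e-04), with its 3 other probes at background. *Trpm3*, a cation channel, fell by 0.52 (adjusted p = 0.0319) and passed in 7 of 16 alternatives (0.0304 to 0.274). *Slc8a1*, the sodium-calcium exchanger, had -0.24 (adjusted p = 0.320), and *Atp2b4*, *Orai3* and *Itpr3* had 0.39, -0.29 and -0.21 (adjusted p = 0.169, 0.238 and 0.352).

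**Figure D5:**
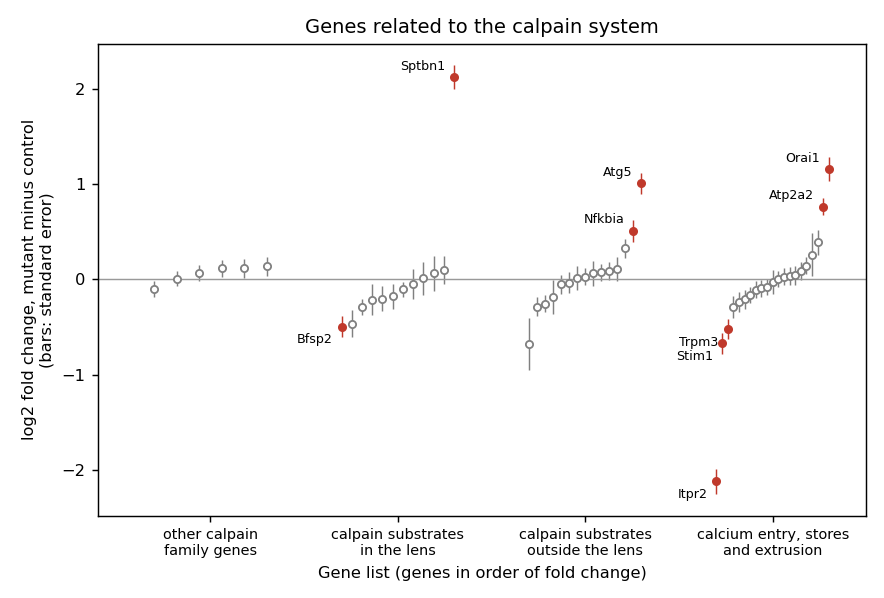
Log2 fold change, mutant minus control, with its standard error for genes of 4 lists related to the calpain system, each read by its brightest probe and ordered by fold change within a list. Filled red points with names passed an adjusted p under 0.05 (9 genes over the 4 lists) and open points did not.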

How the data were processed

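In R, the authors used lumi for background correction and then Rank Invariant normalization. The deposited intensity values are linear, 1 for each probe on each array, with 3442 to 8205 values at or below 0 per array and no detection p. All 5 columns were used. The sources used here give neither tool versions nor a genome build. Here 36.5 was added to each intensity, which puts the lowest at 16, before taking log2. Fold changes on this scale understate those of dim probes. The comparison of mutant with control used limma 3.58.1 under R 4.3.3 (eBayes after lmFit, both sides, Benjamini-Hochberg adjustment), once over 34885 probes that name 1 gene and once over 19057 genes, each by its brightest probe. The annotation names several genes for 18 probes and none for 10378, and these were left out.

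The members, the gene lists and the tests were chosen with earlier results of these data known. The named genes are all members, the other calpain genes, the listed genes that passed with up to 4 more of smallest p, and the 5 genes most like *Capn3*. Promoter sequences are from RefSeq (GRCm38.p6), and 8 of the 9 member genes had a window. Alternatives were quantile normalization, median centring, values below 0 raised to 0 with a constant of 16, leaving out dim probes, an intensity trend, the replicate letter as a block, array weights, no moderation, averaging the probes of a gene, each array left out in turn, and mutant array C alone. That floor and constant with dim probes left out were added after seeing the data. The code was tested on simulated data. Figures were drawn with matplotlib 3.10.9. Precision is limited by how few arrays there are.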

Additional observations from a re-analysis of the deposited data

How the results depend on the processing

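The *Capn3* probes kept their signs under all alternatives tried on single probes, and so did *Capn5* and *Capns1*. Averaging the probes of a gene was applied to the related lists only. The 4 probes of the calpain system that passed became 0 without moderation, where 4 of 34885 probes passed instead of 1494. They also became 0 with values below 0 raised to 0 and a constant of 16, where 232 of 34885 probes passed. Another alternative, chosen after seeing the data, kept moderation, used that floor and constant and left out dim probes. There the count of calpain system probes was 5, where 1316 of 11512 probes passed. It was 3 to 5 when each mutant array was left out in turn, with 3 without mutant array B, where 728 of 34885 probes passed. The 9 genes that passed over the related lists became 0 without moderation, where 8 of 19057 genes passed instead of 1107. They became 5 with the probes of a gene averaged. With each mutant array left out in turn they were 5 to 7, with 5 without mutant array B, where 599 of 19057 genes passed. Fewer also passed without control array B, among the calpain system probes, in these lists and over all probes and all genes. Where 1 control array is left, its spread is assumed equal to that of the mutant group. In mutant array C alone, which has no replicate, the bright *Capn3* probes had log2 fold changes of -1.85 and -1.36 and the range among the 3 probes was 2.94 instead of 2.38. The *Capn3* probe ILMN_2695626 had 1.57 with values below 0 raised to 0 and a constant of 16, with or without dim probes in the fit. Why these values changed was not tested. The replicate letters gave no sign of pairing. Between the arrays' deviations from their group means, correlations were -0.015 for letter A and 0.035 for letter B. With the replicate block, 5 probes of the calpain system and 7 related genes passed, out of 2227 of 34885 probes and 1287 of 19057 genes. Dim probes, among them all of *Cast*, limit what could be seen of changes in those genes.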
